A study of Homo sapiens with 3 samples.

Results

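Binding of the transcription factor ETS1 was examined at 10 genes that encode the subunits of NF-kappaB, IkB proteins and regulators of the pathway. The genes were taken from a fixed list and are NFKB1, NFKB2, RELA, RELB and REL (subunits), NFKBIA, NFKBIE and NFKBIZ (IkB proteins), and TNFAIP3 and BIRC3 (ubiquitin-editing and ubiquitin-ligase regulators). A peak was counted for a gene if its midpoint fell in the gene body or within 100 kb of it, by the GENCODE annotation (release 44) on hg19, and this rule placed 70 of the 26970 ETS1 peaks at the 10 of 20163 protein-coding genes. The data come from ChIP-Seq of SCC25 cells, an established line derived from a tongue squamous carcinoma. The study used it as its mesenchymal, ETS1-rich head and neck cancer model. Of the 3 ChIP samples, C20 was the ETS1 antibody in 2 and 501A in 1. The authors combined the samples into 1 consensus list by IDR (Irreproducible Discovery Rate), which keeps the peaks whose ranks recur between replicates. The list holds positions only, with no height, score or value per sample, so that no replicate error could be computed and no comparison below carries a test between samples. Counts are therefore set beside the same count over all protein-coding genes or all nuclear peaks, as a description, and the intervals given cover counting error only. All samples are of 1 cell line, kept per the methods of the study in medium with serum and hydrocortisone. Any effect of these on the peaks was not tested. No NF-kappaB stimulus is described for the samples, so that binding after one was not measured, and expression of the genes was not analysed here.

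NF-kappaB is a dimer of Rel-domain proteins that is held in the cytoplasm of resting cells by IkB proteins. Signals from receptors such as those for TNF activate the IKK kinases, the IkB protein is degraded, and the dimer enters the nucleus and binds 10-base kappaB sequences. Several of its own subunits and inhibitors are among its textbook target genes, which forms a feedback loop. In squamous epithelium and its carcinomas the pathway is known for its part in inflammation and cell survival.

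ETS1 peaks lay over the start of every one of the 10 genes. For each of them the canonical transcription start site (TSS, that of the transcript marked as canonical in the annotation) was inside a peak (10 of 10), against 52.2% of the 19881 protein-coding genes that have a canonical TSS. Counted by the peak midpoint, 10 of 10 genes had a peak within 500 bp of one of their own annotated TSSs, against 53.1% of all 20163 protein-coding genes. For NFKB2 this was a peak inside the gene, with the midpoint 4.31 kb past the canonical TSS. With the TSSs of protein-coding transcripts alone the count was 9 of 10, for which no share over all genes is given. The 10 genes had a median of 9 annotated TSSs, against 5 over all protein-coding genes, and more TSSs make this count easier to reach. With the canonical TSS alone the midpoint lay within 500 bp for 8 of 10, against 46.7%. The exceptions were NFKB2 and NFKBIA, whose peaks are wide and cover the canonical TSS with midpoints 673 bp and 510 bp away from it. The comparison includes genes that SCC25 may not transcribe, so that the share over all genes is not that of active genes. At NFKB1, RELA, REL and TNFAIP3 the midpoint of this peak also lay within 500 bp of a TSS of a gene that is not protein-coding.

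**Figure D1:**
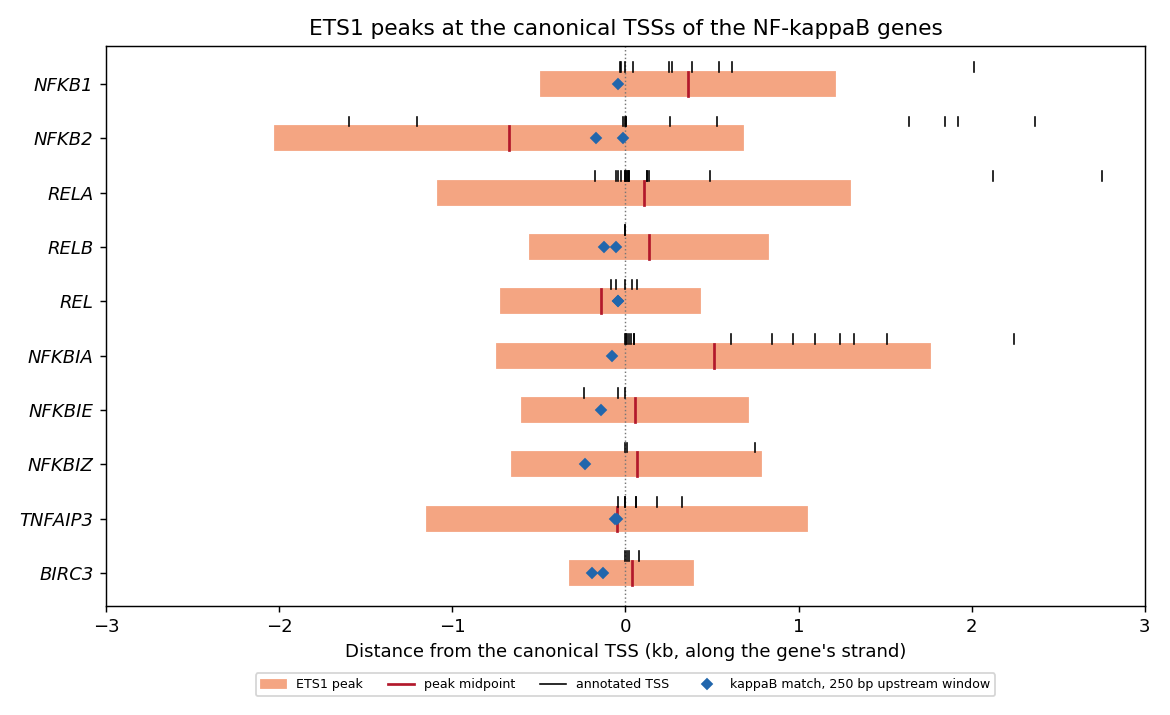
ETS1 peaks near the canonical TSS of each gene, with distance from that TSS in kb along the gene's strand on the x axis and the gene on the y axis; bars are peaks from start to end, red lines their midpoints, black ticks annotated TSSs of the gene and diamonds kappaB matches in the 250 bp upstream. A peak covers position 0 for each of the 10 genes, and 9 of them have a diamond, RELA being the gene without one.

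The sequence just upstream of these starts was read from the hg19 reference, over the 250 bases before the canonical TSS, and searched on both strands for the 10-base kappaB consensus. The consensus was present in 9 of the 10 promoters, against 11.3% of 19862 promoters of protein-coding genes and 11.9% of the 9290 that have a peak within 500 bp. RELA was the gene without a match. NFKB1, NFKBIA, NFKBIE and NFKBIZ each held 1 match, and NFKB2, RELB, REL, TNFAIP3 and BIRC3 each held 2, those of REL overlapping each other on opposite strands. The match nearest to the TSS is shown here within 30 bases for 8 of these genes, because the count of promoters with a match rests on them and the segments lie inside the ETS1 peak of their gene. Each is written 5′ to 3′ on the strand of the gene, with kappaB matches in capitals.
NFKB1 (chr4:103422457-103422486, plus strand): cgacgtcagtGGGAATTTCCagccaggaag
NFKB2 (chr10:104155431-104155460, plus strand): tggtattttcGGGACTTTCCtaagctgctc
RELB (chr19:45504653-45504682, plus strand): cggcggcgccGGGGAATTCCgccgccccgc
REL (chr2:61108653-61108682, plus strand): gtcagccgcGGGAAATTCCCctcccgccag
NFKBIA (chr14:35874017-35874046, minus strand): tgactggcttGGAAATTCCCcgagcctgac
NFKBIZ (chr3:101568109-101568138, plus strand): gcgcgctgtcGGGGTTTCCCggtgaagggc
TNFAIP3 (chr6:138188325-138188354, plus strand): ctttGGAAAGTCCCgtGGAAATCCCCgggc
BIRC3 (chr11:102188070-102188099, plus strand): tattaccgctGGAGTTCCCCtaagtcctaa

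In these segments the distance of the match from the TSS varied from gene to gene. The match of NFKB2 began 21 bases before the TSS, that of REL 46, that of NFKB1 49, that of TNFAIP3 55, that of RELB 59 and that of NFKBIA 81. Those of BIRC3 and NFKBIZ began 135 and 239 bases before it. The 250 bases were chosen after the peaks had been seen, and the count depends on the length. Within 100 bases upstream 6 of 10 genes held the consensus, against 4.42% of all promoters. Within 500 bases upstream 9 of 10 did, against 19.8%. Over 250 bases on each side of the TSS all 10 did, RELA included, against 22.1%. A stricter form with A or T at the sixth base was found in 9 of 10, against 5.87%. Promoters with much G and C hold the consensus more often, 15.2% of those above the median GC content and 7.49% of the rest. The 10 promoters had a median GC content of 72.8% (52.4 to 79.6%), against 63.2% for all promoters. In the 300 bp around the midpoints of the peaks within 500 bp of an own TSS 3 of 10 held it, against 16.2% of all promoter peaks. A match describes letters and does not show that NF-kappaB was bound.

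The sequence GGAAG, a form of the core that ETS proteins contact, is called the ETS core here. It was present on either strand in 5 of the 10 promoters, against 67.0% of all promoters and 72.9% of those with a peak. Other forms of the core were not searched, so that a promoter without GGAAG may still hold one. NFKB1 and NFKBIE held 2 matches each, and NFKB2, NFKBIA and BIRC3 held 1 each. In NFKB2 the ETS match lies within the farther kappaB match on the opposite strand. The longer ETS sequence CCGGAAGT was in 0 of the 10 promoters, against 9.53% of promoters with a peak, and 10 promoters are too few to tell these apart. Over the whole length of the peak at the canonical TSS the core was present in 10 of 10, from 2 matches at BIRC3 to 12 at NFKB1 and NFKBIA. The density was 1.82 to 7.06 matches per kb (median 3.85), and the quartiles of all 11685 promoter peaks, 3.39 and 6.19, take in that median. The longer sequence was in 0 of these 10 peaks and in 12.2% of all promoter peaks, which 10 peaks are again too few to tell apart. The 10 peaks were taken for covering the canonical TSS and the promoter peaks by midpoint, so that the sets are not alike. In the 300 bp around the midpoints of the 10 peaks within 500 bp of an own TSS the core was present in 4 of 10, against 76.7% of promoter peaks. The promoters of NFKBIA and BIRC3 are shown because each holds the core beside kappaB matches and lies upstream of all annotated starts of its gene. Capitals mark kappaB and GGAAG matches on either strand.
NFKBIA promoter (chr14:35873956-35874205, minus strand): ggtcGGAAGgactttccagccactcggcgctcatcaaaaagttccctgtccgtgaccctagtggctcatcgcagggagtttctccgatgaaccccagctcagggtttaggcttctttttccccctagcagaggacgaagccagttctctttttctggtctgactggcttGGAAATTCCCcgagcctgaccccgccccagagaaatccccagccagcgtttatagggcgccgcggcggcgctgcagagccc
BIRC3 promoter (chr11:102187965-102188214, plus strand): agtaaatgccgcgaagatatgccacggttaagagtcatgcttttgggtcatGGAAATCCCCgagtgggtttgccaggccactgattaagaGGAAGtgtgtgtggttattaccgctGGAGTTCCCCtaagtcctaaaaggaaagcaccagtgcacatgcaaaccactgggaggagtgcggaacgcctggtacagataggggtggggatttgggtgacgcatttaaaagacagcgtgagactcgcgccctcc

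Among the subunits, NFKB1 and REL had few ETS1 peaks beyond their start. NFKB1, which encodes p105 and its product p50 (ENSG00000109320, chromosome 4 from 103422487 to 103538459, plus strand), had 1 peak in a window of 316 kb. That peak, from 103422028 to 103423727, covered 9 of its 24 annotated TSSs, and its midpoint lay in exon 1 of the canonical transcript, 361 bp after the canonical TSS. The 15 TSSs that it did not cover start shorter transcripts 2016 bp or more downstream. REL, which encodes c-Rel (chromosome 2 from 61108626 to 61158747, plus strand), had 3 peaks. The peak from 61107991 to 61109140 covered 5 of its 8 TSSs with the midpoint 144 bp before the canonical one. The others lay 19.5 kb upstream in the noncoding gene REL-DT and 85.9 kb past the end of REL at the shared start of PEX13 and PUS10.

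NFKB2, which encodes p100 and its product p52 (chromosome 10 from 104153867 to 104162281, plus strand), was the only gene of the 10 with more than 1 peak in its body. There were 3 in 8.41 kb. The first, from 104153440 to 104156139, was 2700 bp wide and covered 8 of the 18 TSSs, including the canonical one. The next, from 104159045 to 104160497, covered 5 TSSs of shorter transcripts, and its midpoint lay in intron 14 of the canonical transcript. The last, from 104161206 to 104162085, covered none and had its midpoint in exon 21. The remaining 5 peaks of the window stood 19.3 to 99.9 kb past the end of the gene. Of these, 4 were at the starts of PSD, CUEDC2, MFSD13A and ACTR1A and 1 at the start of the noncoding C10orf95-AS1.

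RELA and RELB, which encode the transactivating subunits p65 and RelB, each carried a single own peak in a stretch crowded with other genes. RELA (chromosome 11 from 65421070 to 65430561, minus strand) had 14 peaks in its window, of which the one from 65429090 to 65431468 covered 15 of its 18 TSSs with the midpoint in intron 1, 108 bp after the canonical TSS. Of the others, 8 were within 500 bp of the TSS of another coding gene, and the genes were KAT5, RNASEH2C, SIPA1, PCNX3, MAP3K11, AP001362.1, ZNRD2 and LTBP3. The only intergenic one, from 65419360 to 65420991, had its midpoint 0.895 kb past the end of RELA. RELB (chromosome 19 from 45504719 to 45541450, plus strand) had 8 peaks, and the one from 45504173 to 45505547 covered 2 of its 6 TSSs with the midpoint in exon 1. Another 4 were at the starts of CLPTM1, CLASRP, PPP1R37 and the GEMIN7 and MARK4 pair.

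The IkB genes had 9, 13 and 4 peaks in unlike surroundings. NFKBIA, which encodes IkB-alpha, the inhibitor resynthesised after NF-kappaB activation (chromosome 14 from 35870285 to 35873955, minus strand), had 9 peaks. The peak from 35872196 to 35874694 was 2499 bp wide and covered 14 of 15 TSSs of this 3.67 kb gene, with the midpoint in intron 1. The other 8 were intergenic, 7 of them downstream at 13.7, 30.3, 34.8, 38.3, 67.0, 67.9 and 72.6 kb from the canonical TSS and 1 upstream at 14.9 kb. A count of 8 or more intergenic peaks within 100 kb was reached by 0.417% of all protein-coding genes, a limit that was set by the value of NFKBIA and is given as a description. No other coding gene has its canonical TSS in that window. Among the 2043 protein-coding genes that are alone in their window in this way the median was 1 peak (quartiles 0 and 3), and 5.53% had at least as many as NFKBIA.

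NFKBIE, which encodes IkB-epsilon (chromosome 6 from 44225903 to 44233525, minus strand), had 13 peaks, of which 1 was its own. The peak from 44232581 to 44233885 covered 3 of its 4 TSSs, with the midpoint in exon 1, 55 bp after the canonical TSS. A further 5 lay at the starts of MYMX, SLC29A1, HSP90AB1, SLC35B2 and AARS2, and 2 were intergenic. NFKBIZ, which encodes the nuclear IkB-zeta (chromosome 3 from 101546835 to 101579866, plus strand), had 4 peaks. The one from 101567704 to 101569143 covered 3 of its 9 TSSs, including the canonical one. The first TSS of the gene, at 101546835, is 21523 bp upstream of that and had no peak over it, the nearest midpoint being 21588 bp away. The other 3 peaks of NFKBIZ lay at the start of NXPE3, in a noncoding gene and at the start of the noncoding RDUR. The peaks at the noncoding genes were 317 and 287 bp wide.

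TNFAIP3, which encodes the deubiquitinase A20 that ends NF-kappaB signalling (chromosome 6 from 138188351 to 138204451, plus strand), had 4 peaks. The one from 138187251 to 138189447 covered 7 of its 9 TSSs, with its midpoint 47 bp before the canonical one. Upstream there was an intergenic peak at 55.6 kb and one at 15.1 kb in WAKMAR2, a noncoding gene that runs the other way. A further intergenic peak lay 95.4 kb past the end of TNFAIP3, 111 kb from its canonical TSS. BIRC3, which encodes the ubiquitin ligase cIAP2 (chromosome 11 from 102188215 to 102210134, plus strand), had 6 peaks. The peak from 102187895 to 102188608 was the narrowest of the 10 at a canonical TSS, with 714 bp, and covered 4 of 5 TSSs with the midpoint in exon 1. There were 3 intergenic peaks at 47.5, 49.0 and 61.1 kb upstream and 1 at 11.2 kb upstream at an annotated pseudogene. The last lay 7.75 kb past the end of BIRC3 at the start of BIRC2, its paralogue.

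**Figure D2:**
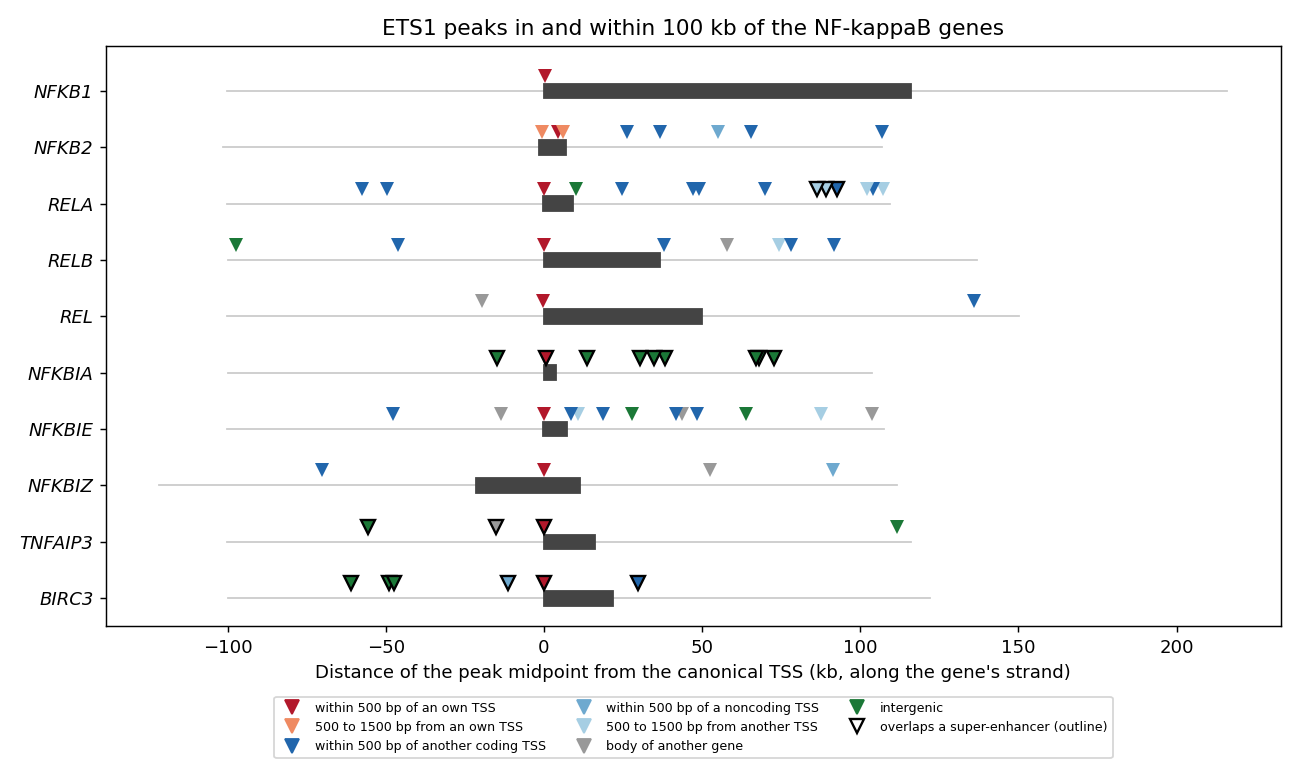
Position of each of the 70 ETS1 peak midpoints relative to the canonical TSS of the gene, in kb along the gene's strand; dark bars are gene bodies, thin lines the 100 kb on each side, colours the class of position and a black outline overlap with a super-enhancer. The 9 peaks of NFKBIA and the 6 of BIRC3 are all outlined, while NFKB1 has 1 peak at its start and none elsewhere.

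The peaks of the 10 genes were sorted by position. Of the 70 peaks, 10 were within 500 bp of an own TSS and 2, both in NFKB2, were 500 to 1500 bp from one. Another 24 (34.3%, 95% Wilson confidence interval 24.2 to 46.0%) were within 500 bp of the TSS of another coding gene, 3 at a noncoding TSS, 7 at 500 to 1500 bp from the TSS of another gene and 7 in the body of another gene. The remaining 17 (24.3%, confidence interval 15.8 to 35.5%) were intergenic, against 19.1% of all nuclear peaks. Of all 26961 nuclear peaks, 11685 lay within 500 bp of the TSS of any gene, to be set beside the counts at own and other starts. Both intervals treat the 70 peaks as independent, although they lie in 10 windows and 8 of the 17 belong to NFKBIA. They are therefore no test against the shares over all peaks. An intergenic peak was found in the windows of 6 of the 10 genes, against 34.9% of all protein-coding genes. No peak midpoint lay inside one of the 10 gene bodies at over 1500 bp from all of its TSSs (0 of 10 genes, against 19.2%). That part of the bodies amounts to 206 kb, for which a count of 0 allows up to 1.46 peaks per 100 kb, while all protein-coding genes had 0.647. A lower density than that of all genes was therefore not detectable over this length.

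**Figure D3:**
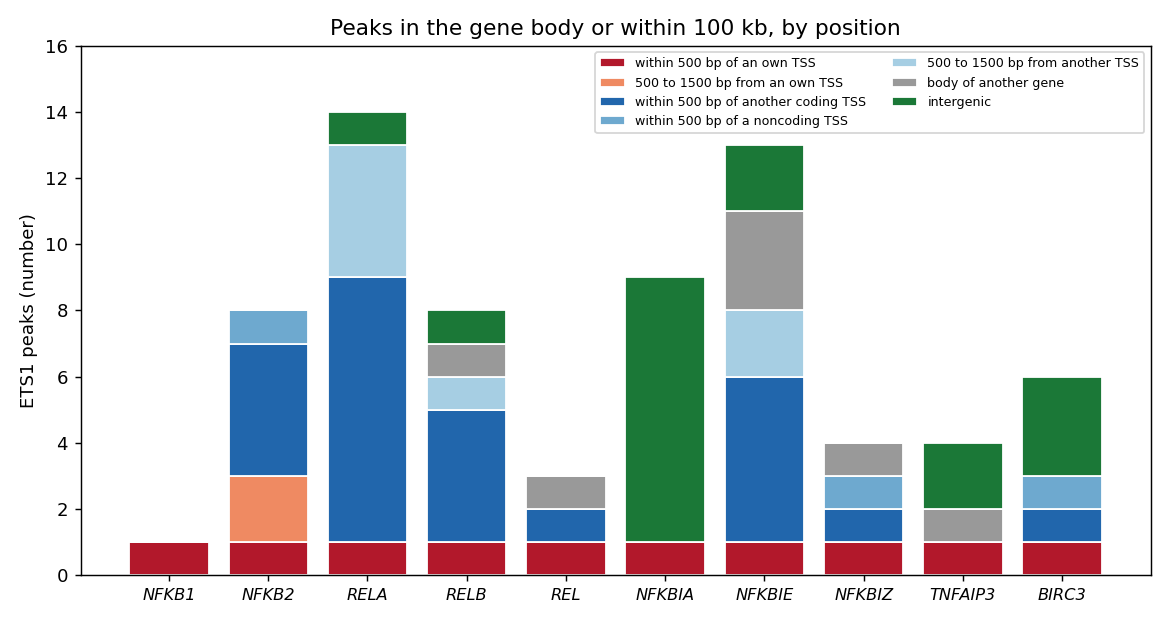
Number of ETS1 peaks in the gene body or within 100 kb of each gene, stacked by class of position (y axis, peaks; x axis, gene). Each gene has 1 peak within 500 bp of an own TSS; RELA with 14 and NFKBIE with 13 are made up mainly of peaks at other genes, and NFKBIA with 9 mainly of intergenic ones.

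Super-enhancers (SEs) are long stretches with much H3K27Ac, a mark of active enhancers, and their positions were taken as the authors called them. Of the 70 peaks 21 (30.0%, 95% Wilson confidence interval 20.5 to 41.5%) overlapped an SE, against 17.2% of all nuclear peaks. They belonged to 4 of the 10 genes, and 17.1% of all protein-coding genes had such a peak in their window. NFKBIA (9 of 9), BIRC3 (6 of 6) and TNFAIP3 (3 of 4) held 18 of them, and for each of the 3 the peak over the own start was included. The other 3 lay in the window of RELA, 76.9 to 83.2 kb past the end of the gene, in or near ZNRD2, FAM89B and EHBP1L1. NFKB1, NFKB2, RELB, REL, NFKBIE and NFKBIZ had none. NFKBIA, BIRC3 and TNFAIP3 were picked out once these values had been seen, and neighbouring peaks in the same SE are not independent of each other. The interval above treats them as independent and is no test against the 17.2% of all nuclear peaks.

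Over all protein-coding genes, windows with more genes held more peaks, and the 10 genes were read against genes with equally many neighbours. RELA, RELB and NFKBIE each have 11 coding genes with the canonical TSS in the window, and had 14, 8 and 13 peaks. The 539 protein-coding genes with that number had a median of 9 (quartiles 7 and 12). NFKB2 with 6 such genes had 8 peaks (median 5, quartiles 3 and 8). REL and NFKBIZ, with 3 peaks among 3 coding genes and 4 among 2, lay within the quartiles of genes like them. BIRC3, with 2, had 6 peaks where the quartiles were 1 and 4, and TNFAIP3, alone in its window, had 4 where they were 0 and 3. NFKB1, also alone, had 1, the median of such genes. Of the 39 other coding genes whose canonical TSS lies in these windows 23 had a peak within 500 bp of a TSS, a share near the 53.1% of all protein-coding genes.

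**Figure D4:**
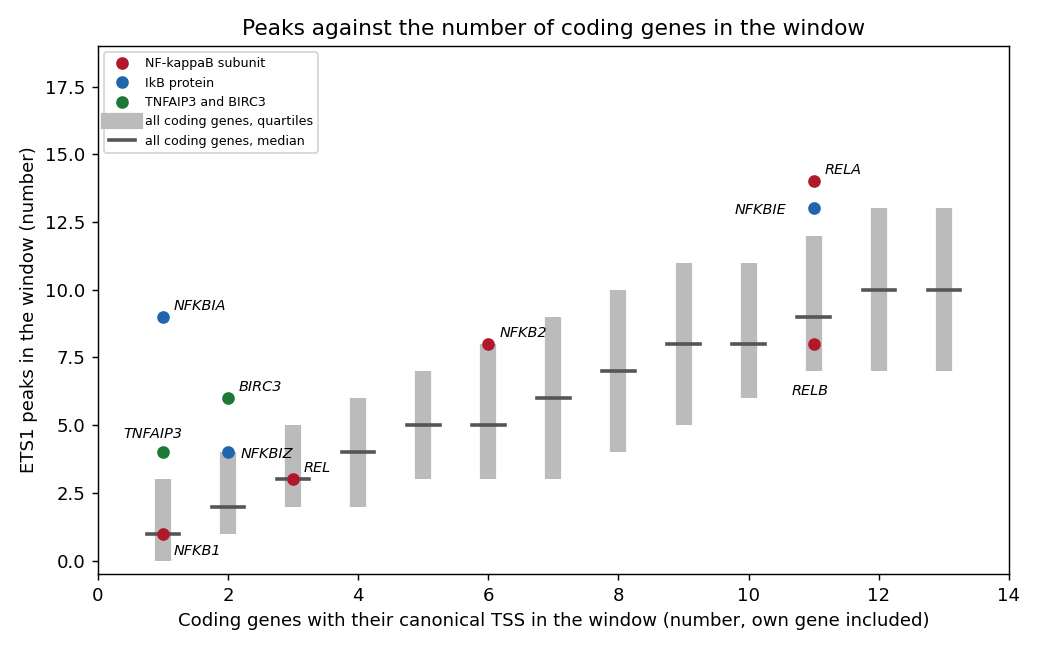
Number of ETS1 peaks in the window (y axis) against the number of coding genes with their canonical TSS in it (x axis), for the 10 genes as labelled points and for all protein-coding genes with the same number as medians (dark lines) and quartiles (grey bars). NFKBIA with 9 peaks, BIRC3 with 6 and TNFAIP3 with 4 lie above the grey bar at the left, and RELA with 14 and NFKBIE with 13 above that at the right.

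The peaks at the 10 canonical TSSs were 714 to 2700 bp wide, with a median of 1570 bp, and 8 of them were wider than the median of the 11685 promoter peaks, 1262 bp (quartiles 912 and 1719 bp). The narrower ones were those of REL, 1150 bp, and BIRC3, 714 bp. The 10 peaks were taken for covering the canonical TSS, which favours wide peaks. The promoter peaks were taken by midpoint within 500 bp of any TSS, so that the 2 sets are not alike. The 17 intergenic peaks had a median width of 978 bp (319 to 2921 bp), against 722 bp for all 5145 intergenic peaks (quartiles 476 and 1081 bp).

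The sequence under the intergenic peaks was searched in the same way as that at the starts, and no difference between them was tested. In the 300 bp centred on the midpoint, the AP-1 sequence TGANTCA, bound by the FOS and JUN proteins, was present in 8 of 17 intergenic peaks (47.1%), against 32.7% of all intergenic peaks, and in 0 of the 10 peaks within 500 bp of an own TSS, against 6.73% of all promoter peaks. Over the whole length of the peaks at the canonical TSSs it was present in 7 of 10, against 24.5% of all promoter peaks, so that the count of 0 holds for the 300 bp around the midpoint alone. The peaks at the canonical TSSs were taken for covering that TSS, and the promoter peaks by midpoint. The former were also wider, as given above, and whether width bears on this count was not tested. The AP-1 matches lay in 3 peaks of NFKBIA, 2 of TNFAIP3, 2 of BIRC3 and 1 of NFKBIE. The ETS core was in 13 of 17 (76.5%), against 78.2%, and the kappaB consensus in 2 of 17 (11.8%), against 11.2%, in both cases at NFKBIA. One of these, the intergenic peak 13.7 kb downstream of the NFKBIA TSS, held ETS, AP-1 and kappaB letters together and is shown first. The peak 49.0 kb upstream of BIRC3 is shown beside it because it held 4 ETS cores, with none of the other sequences. Capitals mark matches to the ETS core, the AP-1 sequence or the kappaB consensus on either strand.
NFKBIA downstream (chr14:35860115-35860414, plus strand): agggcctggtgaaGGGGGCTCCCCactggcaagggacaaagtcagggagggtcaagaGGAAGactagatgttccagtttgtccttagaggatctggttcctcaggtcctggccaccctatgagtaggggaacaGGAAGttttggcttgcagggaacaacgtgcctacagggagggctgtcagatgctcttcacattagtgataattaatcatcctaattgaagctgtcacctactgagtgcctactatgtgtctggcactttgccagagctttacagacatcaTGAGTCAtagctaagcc
BIRC3 upstream (chr11:102139068-102139367, plus strand): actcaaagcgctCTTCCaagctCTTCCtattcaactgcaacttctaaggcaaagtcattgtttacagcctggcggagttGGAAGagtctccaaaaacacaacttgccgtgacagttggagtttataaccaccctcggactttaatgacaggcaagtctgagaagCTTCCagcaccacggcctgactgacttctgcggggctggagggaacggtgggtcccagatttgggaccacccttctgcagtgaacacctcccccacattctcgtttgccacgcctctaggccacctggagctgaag

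The rest of the pathway was followed through a list of 45 further genes, and most of their starts also carried ETS1. A peak lay within 500 bp of an own TSS at 41 of 45 (91.1%), against the 53.1% of all protein-coding genes given above. All 7 kinase genes had one, CHUK, IKBKB and IKBKG of the IKK complex and MAP3K14, MAP3K7, TBK1 and IKBKE, as did all 5 genes of further IkB proteins and their regulators, NFKBIB, NFKBID, BCL3, NKIRAS1 and NKIRAS2. It was present at 15 of 17 receptors, adaptors and ubiquitin ligases, at 7 of 8 negative regulators and at 7 of 8 target genes. The exceptions were CD40, a receptor with the nearest midpoint 28.7 kb from its canonical TSS, the adaptor TRAF5 (56.0 kb), the endonuclease gene ZC3H12A (2.51 kb) and the target IER3 (1.21 kb). With the canonical TSS alone the count was 37 of 45, against 46.7% of protein-coding genes that have one. As above, genes that SCC25 may not transcribe are in the comparison, and numbers of annotated TSSs were not matched. The list of 45 was chosen with earlier results of these data known. The kappaB consensus was present in the 250 bases upstream of 7 of 45 (15.6%), near the 11.3% of all promoters and the 15.2% of those above the median GC content. These were CD40, CYLD, GADD45B, IRF1, NFKBIB, TNIP1 and TRAF3. Of the kinases, receptors and adaptors, negative regulators and target genes, those with most peaks in the gene body were BCL2L1 with 6, IRF1 with 5, SOD2 and MAP3K14 with 4 each, and IKBKB, TNFRSF1A, TRAF3, TAB2, TNIP1 and CFLAR with 3 each. Peaks inside the gene body at over 1500 bp from all own TSSs were present in 13 of the 45 (28.9%), against 19.2% of all protein-coding genes and 0 of the 10 genes above, and these differences were not tested.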

How the data were processed

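ETS1 ChIP-Seq was done in 3 samples of SCC25 cells. Per the methods of the study and the labels, the authors aligned reads to hg19 with Bowtie 1.1.1, discarded those with several loci, pooled with SAMtools 1.3, used MACS2 with combined input as the control, and applied IDR to samples, pseudo-replicates and the pool. The deposited file is 1 pooled list of positions in 3 columns, counted from 0 and given here from 1. Depth per sample is not in the list, so that a weak peak missed for lack of reads cannot be recognised.

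Peaks were placed by midpoint with GENCODE release 44 on GRCh37, the nuclear sequence of hg19, and the 9 mitochondrial peaks were left out of comparisons. Promoter limits (500 and 1500 bp) followed the study. The genes and lists were chosen with earlier results of these data known. All 10 genes are named, as are coding genes whose TSS lies within 500 bp of a counted peak, and pathway genes without a peak at the TSS or with most peaks in the body. Promoter windows were printed in place of windows at the midpoint, which run into transcribed sequence. The segment of 1 gene is not reported here. SEs came from the authors' H3K27Ac analysis, by position and at least 1 bp of overlap. Counting and motif code was tested on simulated data. Python 3.11.15, numpy 2.4.6, scipy 1.17.1 and matplotlib 3.10.9 were used.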

Additional observations from a re-analysis of the deposited data

How the results depend on the processing

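Of 26 other settings tried for 6 counts, 18 stayed within 1.5 times the count reported. With the first 50% of the list (13485 lines, whose order is not explained), 43 of the 70 peaks near the genes remained, 6 of the 10 in gene bodies, 6 of the 10 genes with a peak at an own TSS (by midpoint, NFKB2, RELB, REL and NFKBIE lost theirs) and 10 of the 17 intergenic peaks. Of the 10 peaks over a canonical TSS 7 remained, that of NFKB2 among them, and those of RELB, REL and NFKBIE did not. The median list position of all promoter peaks was 11228, so that more than 50% of them also lie in these 13485 lines. A window of 200 kb held 124 peaks, 38 of them in SEs in place of 21. A window of 50 kb held 9 intergenic peaks and 13 in SEs. Fewer lines or a narrower window hold fewer peaks by construction. The counts of genes with a peak at an own TSS stayed between 8 and 10 with other TSS sets, limits and overlap rules, and those of pathway genes between 36 and 43 under the settings tried. The settings for the kappaB consensus were added after the data were seen. No paired analysis was possible because the only list pools the 3 samples, and for the same reason no replicate could be left out.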

Other observations

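Over the 45 further pathway genes the median was 8 ETS1 peaks in the gene body or within 100 kb, against 4 over all protein-coding genes, without regard to the number of neighbouring genes. IER3, an early response gene, had 20 peaks in its window, and TRADD, an adaptor of the TNF receptor, had 18. PLAU, the urokinase gene and a target of NF-kappaB, had 10 intergenic ETS1 peaks among the 17 within 100 kb. TNFRSF1A and LTBR, the neighbouring receptor genes for TNF and lymphotoxin, had 17 and 16 peaks in their windows, which overlap, and 15 and 12 of these were in SEs. BCL2L1, which encodes the survival protein BCL-XL, had 5 peaks inside its gene at over 1500 bp from its TSSs, and MAP3K14, the kinase of the noncanonical pathway, had 3. IRF1 and TNIP1, a transcription factor gene and a partner gene of A20, had 6 and 5 peaks in SEs. These values were picked out after they had been seen and carry no test.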
